A study of Mus musculus with 36 samples.

Results

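The 49 genes described here are the nuclear Nduf genes of the mouse, which encode the nuclear subunits of mitochondrial complex I and several of its assembly factors, measured in 36 brain libraries. They were chosen by name and level: 55 of the 56184 rows of the count table carried a symbol starting with Nduf, 3 of these were pseudogene symbols, 3 had a mean of under 1 CPM (counts scaled to equal library totals), and 49 remained. All 49 passed the filter on low counts and stood among the 16255 genes tested. By textbook position in the enzyme they comprised 10 genes of the N module, 6 of the Q module, 9 of the proximal membrane arm, 14 of the distal membrane arm, 8 assembly factors and 2 genes named Nduf that are not counted as complex I subunits here, Ndufa4 and Ndufa4l2.

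The brains came from Gpt2 knockout (KO) and Gpt2 wild-type (WT) mice that received vehicle or dm-αKG, an ester of α-ketoglutarate made to enter cells, and were taken on postnatal day 19. Gpt2 is the mitochondrial alanine transaminase, which turns alanine and α-ketoglutarate into pyruvate and glutamate. The 4 groups were KO with 600 mg per kg dm-αKG into the peritoneum (KO-aKG, n = 8), WT with that same dose (WT-aKG, n = 8), and vehicle-treated KO (KO-Veh, n = 10) and WT (WT-Veh, n = 10). The sources used here do not give the knockout allele, the sex of the mice or the brain region of the 10 mg pieces. The labels call the replicates biological without tying each to its own mouse, and p-values reflect only how far these libraries spread.

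Complex I takes electrons from NADH and passes them to ubiquinone while it pumps protons across the inner mitochondrial membrane. The N module holds the flavin that accepts the electrons from NADH, the Q module carries them along iron-sulfur clusters to ubiquinone, and the membrane arm, whose core is encoded by mitochondrial DNA, pumps the protons. The remaining subunits are accessory, and assembly factors help to build the enzyme without staying in it. Neurons depend strongly on this enzyme, and loss of several of its subunits causes Leigh syndrome, a childhood disease of the brain.

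Gpt2 itself was much lower in KO libraries. It had 0.879 to 3.3 CPM in KO-Veh against 22 to 39 CPM in WT-Veh, and 1.12 to 3.17 CPM in KO-aKG against 26.2 to 38 CPM in WT-aKG, with no overlap in either pair. Libraries held 5.77 to 13.3 M counts, and mitochondrial transcripts took 22.6% to 46.7% of them. Markers of brain regions differed widely between libraries of the same group. The cerebellum score, a mean log2 CPM over 20 markers of which Crtam alone was at 0 in any library, spanned 1.57 to 5.70 in KO-aKG, 1.89 to 7.06 in WT-aKG, 1.92 to 7.32 in KO-Veh and 3.03 to 7.27 in WT-Veh. In bulk tissue, fewer cells of a type and less RNA per cell cannot be told apart. The library KO-Veh-9 stood furthest apart for the Nduf genes. KO-Veh-9 was the lowest of its group for 42 of the 49 genes. Its TMM scaling factor, by which its CPM values were divided, was 1.345, the highest of all libraries. How far its low standing rests on that factor was not tested. KO-Veh-9 also had the lowest mitochondrial share of all libraries, 22.6%. Its hypothalamus score was the highest of its group (5.11, with 6 of the 15 listed markers at 0 in some library). WT-Veh-1 was the highest of its group for 15 of the 49 genes and had the highest cerebellum score of its group, 7.27. Other libraries lay at the end of their group for more genes. WT-aKG-3 was the highest for 26, KO-Veh-7 the highest for 22 and WT-Veh-3 the lowest for 20. Calls that change when KO-Veh-9 or WT-Veh-1 is left out are given beside the results.

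**Figure D1:**
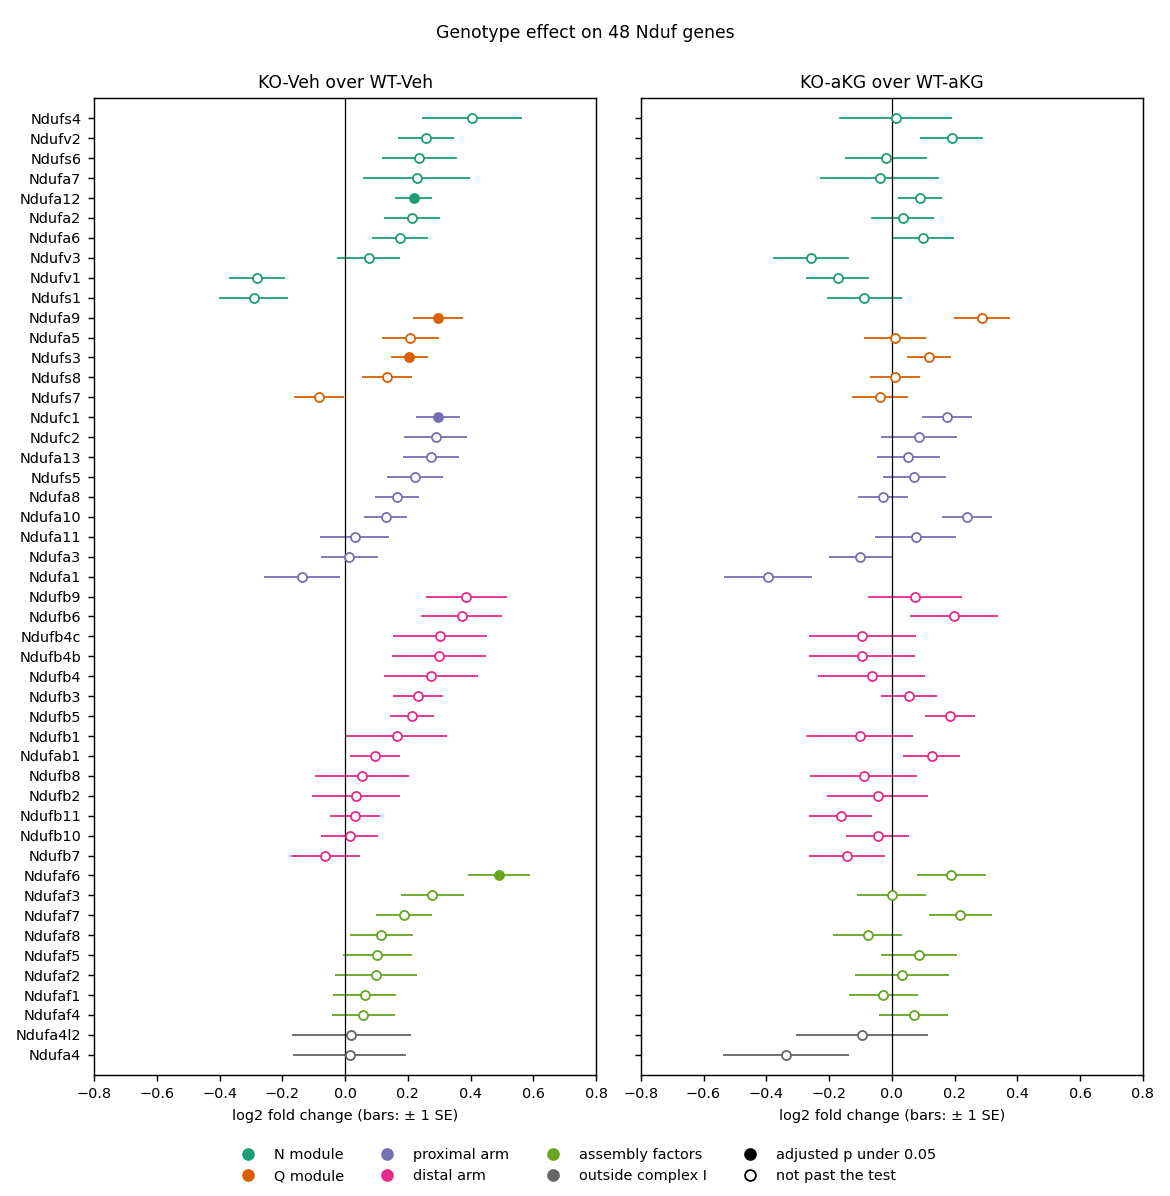
Log2 fold change of 48 Nduf genes, KO-Veh over WT-Veh on the left and KO-aKG over WT-aKG on the right, coloured by module, with bars of 1 standard error. Filled points passed an adjusted p of 0.05: 5 genes with vehicle and 0 with dm-αKG.

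With vehicle, most Nduf genes had slightly positive fold changes in KO against WT libraries, and few passed the test. These genes varied together from library to library, so their signs are not separate evidence. Cytosolic ribosomal protein genes, given below, leaned the same way. Fold changes were above 0 for 43 of the 49 genes, where 46.7% of all genes were, and their log2 median was 0.17, beside -0.02 over all genes tested. In edgeR's quasi-likelihood test, adjusted over all genes, 5 of the 49 rose and 0 fell, where 2.6% of all genes rose and 1.72% fell. The 5 were Ndufaf6, Ndufc1, Ndufa12, Ndufa9 and Ndufs3, from 4 of the 6 modules. At an unadjusted p under 0.05, 19 of the 49 were higher and 2 were lower, where 10% of all genes were higher and 11% lower. The adjusted count depended on single libraries. Without KO-Veh-9 it was 13, all higher, where 3.58% of all genes rose. The 8 added were Ndufa2, Ndufa13, Ndufb3, Ndufb5, Ndufb6, Ndufb9, Ndufs5 and Ndufv2. At an unadjusted p under 0.05, 26 were then higher and 2 lower, where 11.1% of all genes were higher. Without WT-Veh-1 it was 7, with Ndufa13 and Ndufs5 added, where 2.62% of all genes rose. Without KO-Veh-4 it was 2, where 1.8% of all genes rose, and without KO-Veh-10 it was 3, where 1.86% did. DESeq2 called 9 higher and 1 lower, where it called 3.49% of all genes higher and 2.57% lower. The effects were small, and KO-Veh and WT-Veh ranges overlapped for every Nduf gene called in this comparison.

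The assembly factor Ndufaf6, which is needed for making the mitochondrially encoded ND1 subunit, showed the largest change. Its TMM-scaled CPM was 12.6 at the lowest, 18.6 at the median and 23.5 at the highest in KO-Veh, against 10.8, 13.4 and 16.4 in WT-Veh. Of the 10 KO-Veh libraries 8 lay above the highest WT-Veh library, and KO-Veh-9 was the lowest. This gave a log2 fold change of 0.49 ± 0.10 (SE, edgeR adjusted p = 0.00155). Ndufaf6 kept its call under all 10 alternative settings and with each of the 20 libraries left out in turn. All 8 Nduf-named assembly factors had a positive fold change, with a median of 0.11, but only Ndufaf6 passed the test. Ndufaf4, with the smallest fold change of the module, had 18, 24.4 and 35.2 CPM in KO-Veh and 17.7, 24.6 and 28.5 CPM in WT-Veh, overlapping ranges with a log2 fold change of 0.06 ± 0.10 (adjusted p = 0.772).

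In the proximal membrane arm, Ndufc1, a small accessory subunit, had 160, 229 and 256 CPM (lowest, median, highest) in KO-Veh, against 161, 184 and 206 CPM in WT-Veh. All KO-Veh libraries except KO-Veh-9 and 1 other lay above the highest WT-Veh library, and KO-Veh-9 lay below the lowest. Its log2 fold change was 0.30 ± 0.07 (adjusted p = 0.0102), and the call held with each of the 20 libraries left out. It ended in 4 of the 10 alternative settings. These were no low-count filter, only the compared groups, and limma on the CPM table at both pseudocounts. At the other end of the same arm was Ndufa1, which had 121, 232 and 318 CPM in KO-Veh and 179, 236 and 318 CPM in WT-Veh, a log2 fold change of -0.14 ± 0.12 that did not pass the test (adjusted p = 0.548).

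In the Q module, Ndufa9, an accessory subunit at the joint of the peripheral and membrane arms, had 75.1, 97.9 and 125 CPM in KO-Veh, against 69.7, 79.5 and 103 CPM in WT-Veh. The WT-Veh maximum of 103 CPM was in WT-Veh-1, and 9 of the 10 KO-Veh libraries lay above the WT-Veh median. Its log2 fold change was 0.30 ± 0.08 (adjusted p = 0.0319), and the call ended without WT-Veh-3, KO-Veh-4, KO-Veh-6 or KO-Veh-10. The call of Ndufa9 also ended in 5 of the 10 alternative settings. Ndufs3, a core subunit beside the iron-sulfur chain, had 83.7, 92.3 and 105 CPM in KO-Veh, against 66.5, 79 and 99.4 CPM in WT-Veh. All 10 KO-Veh libraries lay above the WT-Veh median, and the ranges overlapped. Its log2 fold change of 0.20 ± 0.06 lay close to the threshold (adjusted p = 0.0448), and leaving out any 1 of 13 libraries ended the call. Among libraries left out, it held only without WT-Veh-1, WT-Veh-3, KO-Veh-2, KO-Veh-6, KO-Veh-7, KO-Veh-8 or KO-Veh-9. The call of Ndufs3 also ended in 5 of the 10 alternative settings. Exons of Ndufa9 and Ndufs3 overlap genes on the opposite strand in GENCODE M21 (1700018A23Rik and Kbtbd4), and the sources used here do not say whether strand was used in counting.

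In the N module, Ndufa12, an accessory subunit added late in assembly, had 119, 149 and 168 CPM in KO-Veh, against 106, 125 and 145 CPM in WT-Veh. Of the 10 KO-Veh libraries 7 lay above the highest WT-Veh library. It rose by 0.22 ± 0.06 on the log2 scale (adjusted p = 0.027), and the call ended without KO-Veh-4. The call also ended in 6 of the 10 alternative settings. Among these were the replicate block and the fit without libraries high in cerebellum markers. The pseudogene row Ndufa12-ps, which averaged 81 CPM beside 147 CPM for Ndufa12, moved with it between libraries of a group (r = 0.83, n = 36) and rose too (0.27 ± 0.07, adjusted p = 0.0234), so reads of the 2 rows may be mixed and the value of either is uncertain. Ndufs4, whose loss in mice gives a Leigh-like disease, had the largest fold change of the module, 0.41 ± 0.16, but spread widely, with 79.8, 150 and 209 CPM in KO-Veh and 81.6, 114 and 147 CPM in WT-Veh, and did not pass the test (adjusted p = 0.133).

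In the distal membrane arm 0 of 14 genes passed the adjusted test and 4 had an unadjusted p under 0.05, all higher, although 13 of the 14 fold changes were positive and their median was 0.19, beside 0.22 in the N module and 0.17 in both the Q module and the proximal arm. DESeq2 called 2 of the 14, Ndufb5 (0.22, adjusted p = 0.0474) and Ndufb9 (0.39, adjusted p = 0.0497). Ndufb9, the accessory subunit with the largest fold change of the arm, had 311, 734 and 869 CPM in KO-Veh, against 365, 534 and 677 CPM in WT-Veh. KO-Veh-9 lay below and 6 KO-Veh libraries lay above all WT-Veh libraries. The log2 fold change was 0.39 ± 0.13 (edgeR adjusted p = 0.0835), and without KO-Veh-9 it was 0.48 (adjusted p = 0.0081). Ndufb7 was the lowest of the arm, with 103, 166 and 225 CPM in KO-Veh, 126, 175 and 250 CPM in WT-Veh and a log2 fold change of -0.06 ± 0.11 (adjusted p = 0.764). The 250 CPM were in WT-Veh-1, and the fold change was 0.01 without that library and 0.00 without KO-Veh-9, so its sign rests on them. Ndufb7 lies 1.92 Mb from Gpt2 on chromosome 8 in GRCm38.

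Ndufa4, now assigned to cytochrome c oxidase, and Ndufa4l2, its hypoxia-inducible relative, did not differ detectably. Ndufa4 had 966, 1710 and 2710 CPM in KO-Veh and 1150, 1630 and 2550 CPM in WT-Veh (log2 fold change 0.01 ± 0.18, adjusted p = 0.975). Ndufa4l2 had 1.09 to 2.61 CPM in KO-Veh and 0.928 to 2.6 CPM in WT-Veh (0.02 ± 0.19, adjusted p = 0.967).

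**Figure D2:**
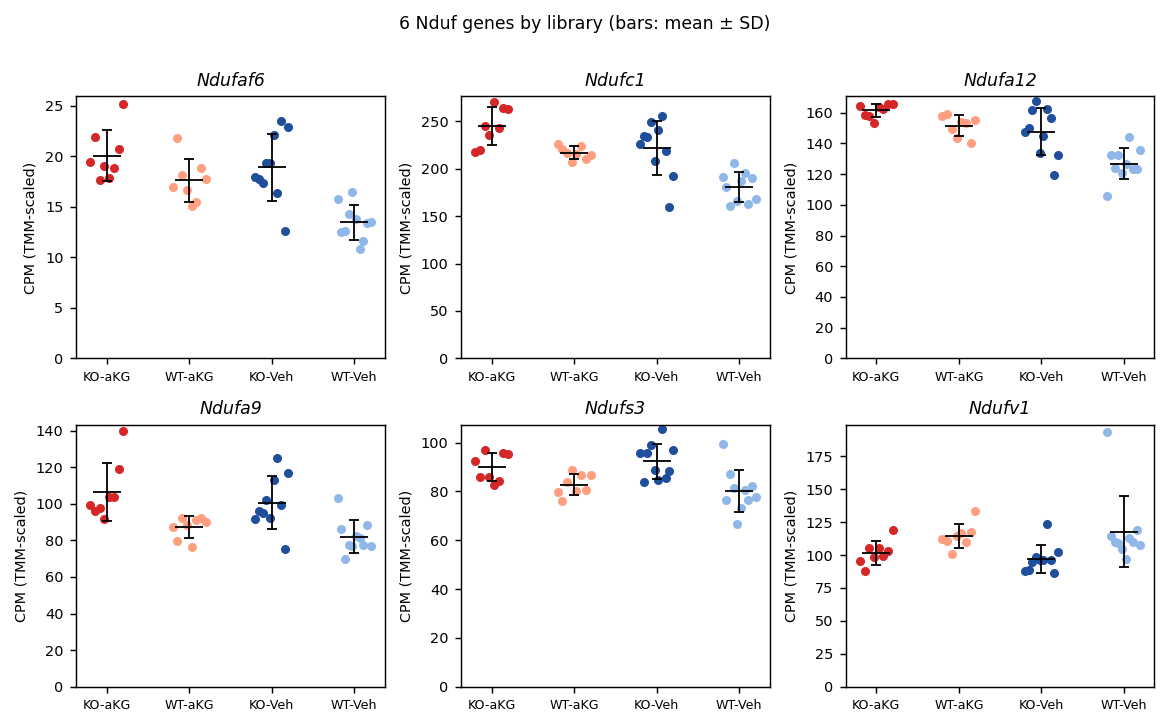
TMM-scaled CPM of 6 Nduf genes in each of the 36 libraries, by group, with the mean and SD as black bars. The 5 genes called with vehicle sit higher in KO-Veh than in WT-Veh with overlapping ranges, and Ndufv1 has 1 WT-Veh library, WT-Veh-1, at 194 CPM.

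The 6 core catalytic subunits given here (Ndufv1, Ndufv2, Ndufs1, Ndufs3, Ndufs7 and Ndufs8) did not move together. Their median log2 fold change in KO-Veh against WT-Veh was 0.03, with 3 positive and 3 negative values, and of these only Ndufs3 passed the test. Ndufv1, which binds NADH and the flavin, had 86.3, 96.1 and 124 CPM in KO-Veh, against 97, 110 and 194 CPM in WT-Veh. Of the 10 KO-Veh libraries 7 lay below the lowest WT-Veh library, and WT-Veh-1 stood far above the rest. The log2 fold change of -0.28 ± 0.09 did not pass the test (edgeR adjusted p = 0.0648). It was -0.17 without WT-Veh-1 (adjusted p = 0.138), and -0.22 without the 9 libraries high in cerebellum markers, where it passed (adjusted p = 0.046). DESeq2 called Ndufv1 lower (-0.28, adjusted p = 0.034). Ndufs1, which holds several iron-sulfur clusters, had 47.8, 56.4 and 76.7 CPM in KO-Veh, against 56.8, 67.1 and 126 CPM in WT-Veh. Of the KO-Veh libraries 5 of 10 lay below all WT-Veh libraries, and the 126 CPM were again in WT-Veh-1. The log2 fold change was -0.29 ± 0.11 (adjusted p = 0.122) and -0.16 without WT-Veh-1.

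Their partner in the N module, the iron-sulfur subunit Ndufv2, had the opposite sign. It had 178, 249 and 297 CPM in KO-Veh, against 183, 212 and 233 CPM in WT-Veh, and 7 of the 10 KO-Veh libraries lay above all WT-Veh libraries (log2 fold change 0.26 ± 0.09, edgeR adjusted p = 0.0778). Ndufv2 was called without KO-Veh-9 (0.31, adjusted p = 0.0197), with 4 region and cell scores as covariates (0.31, adjusted p = 0.0144) and in DESeq2 (0.26, adjusted p = 0.0393). Ndufv2 was not called without WT-Veh-1, without the low-count filter, with only the compared groups, with a replicate block or in limma on the CPM table. In the Q module, the iron-sulfur subunits Ndufs7 and Ndufs8 had smaller values. Ndufs7 had 76.5 to 117 CPM in KO-Veh, with 6 libraries below all WT-Veh libraries, and 85.3 to 108 CPM in WT-Veh (-0.08 ± 0.08, adjusted p = 0.573). Ndufs8 had 86.8 to 150 CPM in KO-Veh and 102 to 145 CPM in WT-Veh (0.13 ± 0.08, adjusted p = 0.31).

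Region markers moved with this comparison. All 20 cerebellum markers had a negative fold change in KO-Veh against WT-Veh (median -1.05), as did all 12 of thalamus and brainstem (median -0.88) and all 9 tested of choroid plexus (median -0.94). edgeR called 0 of them, and 1, 6 and 6 were lower at an unadjusted p under 0.05. Thalamus and brainstem scores ran from 1.09 to 2.07 in KO-Veh and from 1.00 to 5.30 in WT-Veh, and choroid plexus scores from 0.23 to 2.44 in KO-Veh and from 0.23 to 3.51 in WT-Veh, with 4 and 3 of the listed markers at 0 in at least 1 library. The 4 region and cell scores used as covariates were those of cerebellum, cortex, striatum and oligodendrocyte. Scores of thalamus and brainstem, choroid plexus and hypothalamus were not among them. With these covariates, 15 Nduf genes rose and 0 fell, where 4.82% of all genes rose in that fit. They included the 5 above, with fold changes of 0.21 for Ndufa12, 0.24 for Ndufs3, 0.31 for Ndufc1, 0.37 for Ndufa9 and 0.49 for Ndufaf6. Without the 9 libraries high in cerebellum markers, 6 rose and 1 fell, where 2.23% of all genes rose and 1.54% fell, and Ndufaf6, Ndufc1 and Ndufa9 were among the 6. Cytosolic ribosomal protein genes, a list outside mitochondria, had positive fold changes for 75 of 77, with a median of 0.27, and 2 of 77 rose.

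The stretches around the starts of the called genes are shown because these genes rose in the same comparison and because complex I genes are textbook targets of the factors NRF1 and YY1. Each runs from 250 bases before to 50 bases after the RefSeq start (GRCm38.p6), 5′ to 3′ on the gene's strand. Capitals mark matches on either strand to the letters searched, and Ndufv1 is set beside the 4 as a gene with no match. Ndufaf6 is not among them.
Ndufc1: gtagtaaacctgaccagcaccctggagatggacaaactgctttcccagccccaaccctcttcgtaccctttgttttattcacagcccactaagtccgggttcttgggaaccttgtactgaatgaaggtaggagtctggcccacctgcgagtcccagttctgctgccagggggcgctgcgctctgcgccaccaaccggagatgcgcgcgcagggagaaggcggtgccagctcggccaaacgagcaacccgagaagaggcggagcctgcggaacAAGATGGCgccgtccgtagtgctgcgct
Ndufa9: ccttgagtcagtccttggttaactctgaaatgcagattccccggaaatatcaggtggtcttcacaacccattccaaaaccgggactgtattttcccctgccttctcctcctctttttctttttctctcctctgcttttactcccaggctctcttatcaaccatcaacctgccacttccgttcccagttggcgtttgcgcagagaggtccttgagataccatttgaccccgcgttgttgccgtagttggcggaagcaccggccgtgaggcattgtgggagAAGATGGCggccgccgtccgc
Ndufa12: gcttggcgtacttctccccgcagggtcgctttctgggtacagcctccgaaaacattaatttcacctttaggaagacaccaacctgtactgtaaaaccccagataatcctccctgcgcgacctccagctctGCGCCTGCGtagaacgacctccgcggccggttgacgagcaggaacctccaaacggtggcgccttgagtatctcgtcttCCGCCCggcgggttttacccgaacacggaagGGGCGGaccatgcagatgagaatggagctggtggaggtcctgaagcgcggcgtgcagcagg
Ndufs3: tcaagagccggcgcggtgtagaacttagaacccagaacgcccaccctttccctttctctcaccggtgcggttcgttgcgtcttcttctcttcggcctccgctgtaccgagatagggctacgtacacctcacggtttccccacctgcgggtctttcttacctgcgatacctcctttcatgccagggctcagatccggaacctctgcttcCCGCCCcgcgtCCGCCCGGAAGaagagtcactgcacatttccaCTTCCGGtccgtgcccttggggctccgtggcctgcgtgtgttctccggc
Ndufv1: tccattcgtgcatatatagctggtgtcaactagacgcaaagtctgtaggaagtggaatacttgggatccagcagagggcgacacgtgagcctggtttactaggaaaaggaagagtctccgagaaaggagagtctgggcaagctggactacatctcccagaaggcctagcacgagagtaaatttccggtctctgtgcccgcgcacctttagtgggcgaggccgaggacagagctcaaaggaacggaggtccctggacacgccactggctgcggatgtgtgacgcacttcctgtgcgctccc

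The stretches lie at chr3:51408906-51409205 for Ndufc1, chr6:126849095-126849394 for Ndufa9, chr2:90904672-90904971 for Ndufs3 and chr19:4012706-4013005 for Ndufv1, all on the minus strand, and at chr10:94198785-94199084 on the plus strand for Ndufa12. Counting the start base as 1, Ndufc1 and Ndufa9 each carry AAGATGGC, the YY1 letters, at 23 and 30, within the window's transcribed end. Ndufa12 carries an NRF1 match (GCGCNTGCG) at -120 and SP1 letters (GGGCGG) at -42 and -11. Ndufs3 carries SP1 letters at -42 and -31 and ETS letters (CCGGAAG) at -27 and 2, of which the pair at -31 and -27 overlap.

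Promoter stretches were matched for 42 of the 49 genes. NRF1 letters stood in 26.2% of them, against 7.1% of all 27025 genes with such a stretch, and YY1 letters in 19.0%, against 3.2%. ETS letters stood in 14.3% against 9.9%, SP1 letters in 21 of 42 against 38.2%, ERR letters (AAGGTCA) in 7.1% against 5.4%, and CCAAT in 33.3% against 41.1%. ATF4 letters (TGATGNAA) stood in 0 of 42, against 4.5% of all genes. The background holds every gene with such a stretch, also genes too low to be tested here, and the tested genes were not taken alone. A match describes letters and not a bound site.

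With dm-αKG, the genotype difference of the Nduf genes was close to 0. In KO-aKG against WT-aKG 26 of the 49 fold changes were positive, where 46.7% of all genes were, with a median of 0.01. Of the 49, 0 passed edgeR's adjusted test, where 1.12% of all genes rose and 0.751% fell. At an unadjusted p under 0.05, 5 were higher and 2 lower, where 6.95% of all genes were higher and 8.77% lower. Without KO-aKG-8, 2 were higher and 3 lower at that level, where 5.6% of all genes were higher and 7.24% lower. DESeq2 called 1, Ndufa9, higher, where it called 1.68% of all genes higher. Ndufa9 had 91.8, 102 and 140 CPM in KO-aKG, against 76.4, 89.3 and 92.4 CPM in WT-aKG. Of the 8 KO-aKG libraries 7 lay above the highest WT-aKG library. This was a log2 fold change of 0.29 ± 0.09 (edgeR adjusted p = 0.0986). Ndufa10, an accessory subunit of the proximal arm, had 116, 129 and 145 CPM in KO-aKG, against 89.8, 111 and 126 CPM in WT-aKG (0.24 ± 0.08, adjusted p = 0.126). The most negative value was that of Ndufa1, with 215, 229 and 276 CPM in KO-aKG, against 246, 288 and 431 CPM in WT-aKG. All KO-aKG libraries lay below the WT-aKG median (-0.40 ± 0.14, adjusted p = 0.143). On the deposited CPM table, which is not TMM-scaled, 43 of 47 fold changes were positive in this comparison, with a median of 0.18, but the median of all genes was 0.14 there. Relative to all genes the Nduf median was 0.04 on that table and 0.03 in the TMM-scaled fit.

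Markers of regions moved with this comparison too. All 20 cerebellum markers were negative in KO-aKG against WT-aKG (median -2.02, 0 called, 6 lower at an unadjusted p under 0.05), and all 13 tested hypothalamus markers were positive (median 1.95, 2 called). Hypothalamus scores ran from 0.76 to 5.18 in KO-aKG and from 0.04 to 2.81 in WT-aKG. Without the 9 libraries high in cerebellum markers 38 of the 49 Nduf values were positive, with a median of 0.08, and edgeR again called 0. Those 9 included 4 WT-aKG libraries and 1 KO-aKG library, so fewer libraries were compared. With the 4 scores as covariates, hypothalamus not among them, edgeR called 1, Ndufa9 (0.31, adjusted p = 0.0362), where 1.4% of all genes rose.

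Ndufaf6 had 17.7, 19.2 and 25.2 CPM in KO-aKG, against 15.1, 17.4 and 21.8 CPM in WT-aKG (0.19 ± 0.11, adjusted p = 0.386). Ndufc1 had 218, 244 and 271 CPM in KO-aKG, against 207, 216 and 226 CPM in WT-aKG, and 6 of the 8 KO-aKG libraries lay above all WT-aKG libraries (0.17 ± 0.08, adjusted p = 0.258). Ndufa12 had 154 to 166 CPM in KO-aKG and 140 to 159 CPM in WT-aKG (0.09 ± 0.07, adjusted p = 0.533), and Ndufs3 had 82.7 to 97.2 CPM in KO-aKG and 76 to 88.8 CPM in WT-aKG (0.12 ± 0.07, adjusted p = 0.401). All 5 genes that rose with vehicle thus had positive fold changes here, and 0 of them passed the test. The test of the difference between the 2 genotype effects, the interaction, called 0 of the 49 and 0% of all genes, and DESeq2 called 0. Its values were negative for 41 of the 49, where 48.6% of all genes were positive, with a median of -0.13. On the CPM table that median was 0.05, beside 0.16 over all genes. Relative to all genes it was -0.11 there and -0.12 in the TMM-scaled fit. At an unadjusted p under 0.05 it gave 2 genes, Ndufv3 (-0.33 ± 0.15) and Ndufaf6 (-0.30 ± 0.14), both with an adjusted p of 0.961, where 2.07% of all genes were lower and 2.42% higher. Without KO-Veh-9 there were 9, all lower, where 2.56% of all genes were lower and 3.42% higher. A difference between the genotype effects under vehicle and dm-αKG was not detectable with these libraries.

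Averaged over both treatments, 10 of the 49 Nduf genes rose in KO and 1 fell, where 5.71% of all genes rose and 6.17% fell. Fold changes were positive for 35 of 49, against 46.1% of all genes, and at an unadjusted p under 0.05, 16 were higher and 3 lower, against 12.3% and 16.2% of all genes. Without KO-Veh-9, 12 rose, with Ndufb9 and Ndufs5 added, and without WT-Veh-1, 12 rose, with Ndufa13 and Ndufs5 added, where 6.38% and 6.04% of all genes rose. The 4 with the smallest p were Ndufaf6 (0.34 ± 0.07, edgeR adjusted p = 0.0016), Ndufa9 (0.29 ± 0.06, 0.00181), Ndufc1 (0.24 ± 0.05, 0.00267) and Ndufb5 (0.20 ± 0.06, 0.017). Ndufs3, Ndufa12, Ndufv2 and Ndufa10 followed with 0.15 to 0.22. Ndufb5, a distal accessory subunit, had 224, 254 and 336 CPM in KO-aKG against 201, 230 and 254 CPM in WT-aKG, and 173, 218 and 259 CPM in KO-Veh against 155, 190 and 202 CPM in WT-Veh. In KO-Veh 7 of 10 libraries, and in KO-aKG 4 of 8, lay above all WT libraries of the same treatment. Ndufv2 had 257 to 383 CPM in KO-aKG against 230 to 308 CPM in WT-aKG (0.22 ± 0.06 on average, adjusted p = 0.0203). Ndufa10 rose by 0.18 ± 0.05 (adjusted p = 0.0242), with 106 to 144 CPM in KO-Veh against 95.3 to 135 CPM in WT-Veh.

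The remaining rises, Ndufaf7 and Ndufb6, lost their calls with single libraries left out, which the rises above did not. Over the 9 alternative settings Ndufaf7 lost its call in 5 and Ndufb6 in 2. Ndufa10 lost it in 4, Ndufs3 in 3, Ndufa12 in 2, and Ndufb5 and Ndufv2 in 1 each. Ndufaf6, Ndufa9 and Ndufc1 lost it in 0. Ndufaf7, a mitochondrial methyltransferase that acts in complex I assembly, had 11.4, 15.3 and 18.7 CPM in KO-aKG against 11.4, 13.8 and 14.4 CPM in WT-aKG, and 9.29, 13.6 and 15.4 CPM in KO-Veh against 9.41, 11.5 and 14.4 CPM in WT-Veh (0.20 ± 0.07, adjusted p = 0.0368). Its call ended without WT-Veh-4, WT-aKG-3, WT-aKG-6, WT-aKG-7, KO-aKG-2, KO-aKG-5 or KO-aKG-8. Ndufb6, an accessory subunit of the distal arm, had 271, 330 and 431 CPM in KO-aKG against 239, 271 and 404 CPM in WT-aKG, and 170, 308 and 423 CPM in KO-Veh against 169, 249 and 286 CPM in WT-Veh (0.29 ± 0.09, adjusted p = 0.0441). Its call ended with any 1 of 17 of the 36 libraries left out, and its adjusted p ran from 0.0112 to 0.0818 over all alternatives. The 17 were WT-Veh-2, 3 and 7, WT-aKG-1, 2, 5, 6 and 8, KO-Veh-2, 4, 6, 8 and 10, and KO-aKG-1, 2, 7 and 8. Exons of Ndufb5 and Ndufb6 overlap Mrpl47 and Smim27 on the opposite strand.

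Ndufv1 was the 1 Nduf gene that fell. In KO-aKG it had 87.8, 101 and 119 CPM, against 101, 114 and 133 CPM in WT-aKG, and 1 of the 8 KO-aKG libraries lay above the WT-aKG median. With the vehicle values above, the averaged log2 fold change was -0.23 ± 0.07 (adjusted p = 0.0241). It was -0.17 without WT-Veh-1 (adjusted p = 0.0185), and the call held with each of the 36 libraries left out in turn. Ndufv1 lost its call without the filter on low counts and in limma on the CPM table at both pseudocounts.

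**Figure D3:**
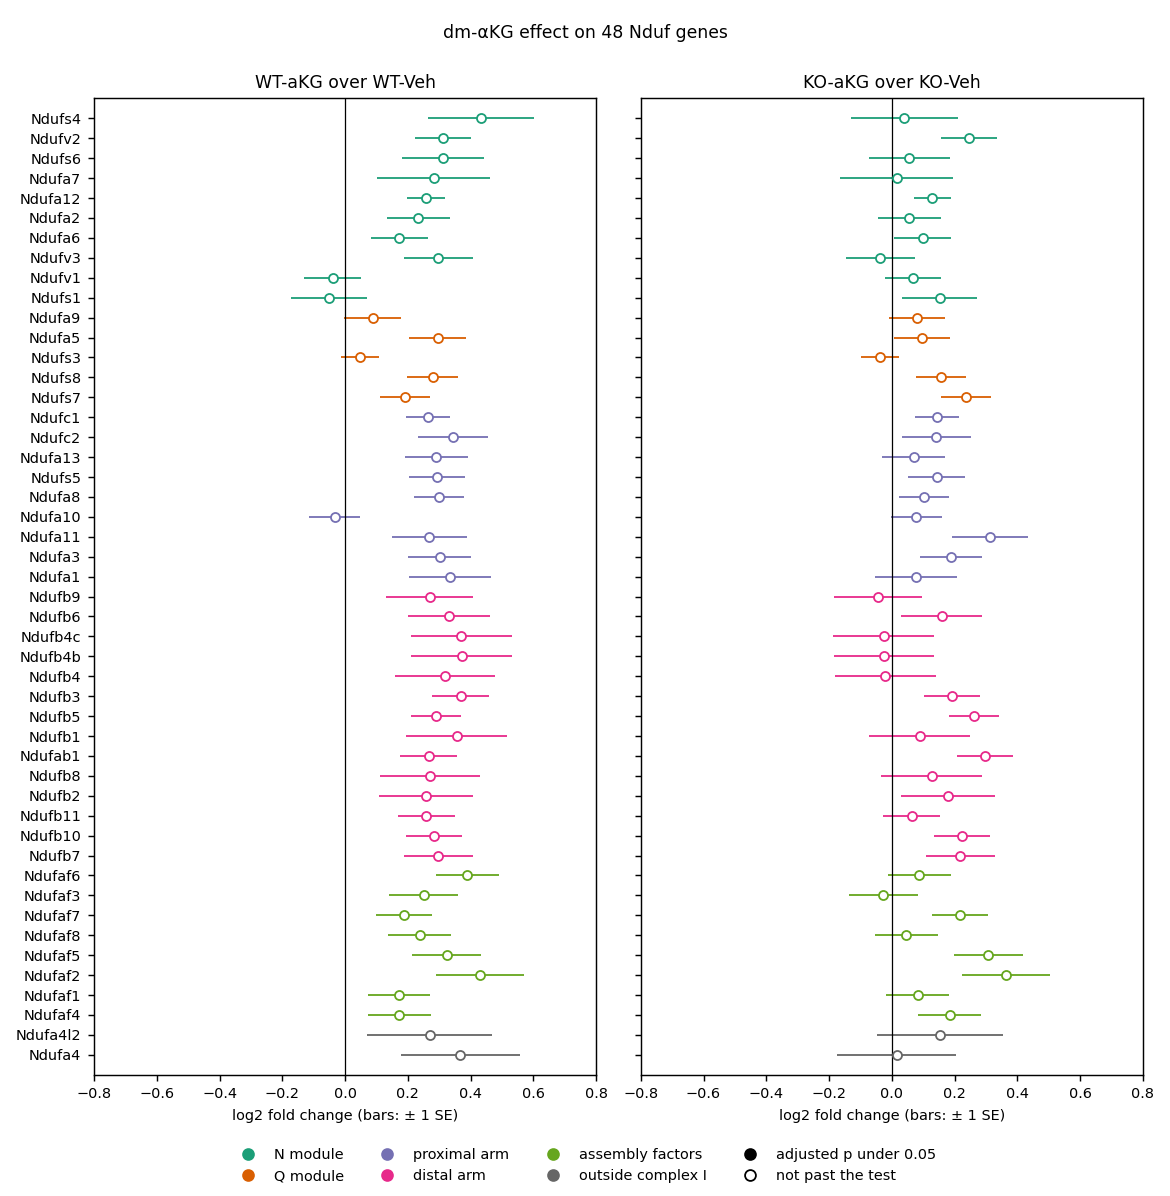
Log2 fold change of 48 Nduf genes, WT-aKG over WT-Veh on the left and KO-aKG over KO-Veh on the right, coloured by module, with bars of 1 standard error. No point is filled: 0 genes passed an adjusted p of 0.05, while 45 of the 48 on the left and 41 of the 48 on the right lie above 0.

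In WT brains, dm-αKG went with slightly higher levels of most Nduf genes, none of which passed edgeR's adjusted test. Fold changes in WT-aKG against WT-Veh were positive for 46 of the 49, where 47.8% of all genes were, with a median of 0.28, beside a median of -0.01 over all genes. edgeR called 0 of the 49 and 0% of all genes tested. At an unadjusted p under 0.05, 33 of the 49 (67.3%) were higher and 0 lower, where 4.63% of all genes were higher and 3.93% lower, and DESeq2 called 7 higher (Ndufa12, Ndufb3, Ndufa8, Ndufb5, Ndufc1, Ndufs8 and Ndufv2) and 0 lower, where it called 0.412% of all genes higher. Leaving out single libraries kept the median between 0.25 and 0.30, and the number at an unadjusted p under 0.05 between 24, without WT-aKG-3, and 35, without WT-Veh-1, where 3.74% and 4.88% of all genes were. The 9 libraries high in cerebellum markers included 4 of WT-aKG and 3 of WT-Veh, so that fewer libraries were compared without them. In that fit the median was 0.24 and 17 were higher at that level, where 2.89% of all genes were. With 4 region and cell scores as covariates 40 were, where 8.16% of all genes were.

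All 14 distal genes and all 8 assembly factors had positive values here, with medians of 0.29 and 0.24, and 8 of the 9 proximal genes had an unadjusted p under 0.05. Ndufb3, a distal accessory subunit and the gene with the smallest p, had 118, 147 and 181 CPM in WT-aKG, against 104, 113 and 139 CPM in WT-Veh. All 8 WT-aKG libraries lay above the WT-Veh median and 4 lay above all WT-Veh libraries (0.37 ± 0.09, edgeR adjusted p = 0.17). Ndufc1 had 207 to 226 CPM in WT-aKG and 161 to 206 CPM in WT-Veh, so that the ranges did not overlap, although the adjusted p was 0.223 (0.26 ± 0.07). Ndufa8, a proximal accessory subunit, had 246, 254 and 287 CPM in WT-aKG, against 158, 219 and 246 CPM in WT-Veh (0.30 ± 0.08, adjusted p = 0.194). The ranges of Ndufa8 did not overlap either, with 246 CPM as the lowest of WT-aKG and 245.7 CPM as the highest of WT-Veh. How many of all genes had ranges without overlap was not counted. Ndufa12 had 140 to 159 CPM in WT-aKG and 106 to 145 CPM in WT-Veh (0.26 ± 0.06, adjusted p = 0.17). Ndufaf6 had 15.1, 17.4 and 21.8 CPM in WT-aKG, against 10.8, 13.4 and 16.4 CPM in WT-Veh, with 6 of 8 WT-aKG libraries above all WT-Veh libraries (0.39 ± 0.10, adjusted p = 0.192). Ndufaf2, a paralog of Ndufa12 that acts in assembly, had 26.3, 31.8 and 41.1 CPM in WT-aKG, against 18.2, 27.6 and 30.4 CPM in WT-Veh (0.43 ± 0.14, adjusted p = 0.306).

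The core catalytic subunits again differed among themselves. Ndufv2 (0.31 ± 0.09) and Ndufs8 (0.28 ± 0.08, both with an adjusted p of 0.223) lay with the accessory subunits, and Ndufs7 had 0.19 ± 0.08 (adjusted p = 0.504). Ndufs3, Ndufv1 and Ndufs1 lay between -0.05 and 0.05, and without WT-Veh-1 Ndufv1 had 0.06 and Ndufs1 0.07. Other lists had positive medians too. Nuclear subunits of complexes II to V had a median of 0.26, with 20 of 39 at an unadjusted p under 0.05 and higher, and cytosolic ribosomal protein genes had a median of 0.22, with 16 of 77. The 7 complex I genes of mitochondrial DNA had a median of 0.03. Cerebellum markers had a median of 0.12 and thalamus and brainstem markers one of -0.35, with 0 called in either list, and their part in the Nduf values beyond the fits above was not tested.

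In KO brains, too, most values were positive and 0 were called. In KO-aKG against KO-Veh 42 of the 49 fold changes were above 0, where 48.4% of all genes were, with a median of 0.10, beside -0.01 over all genes, and edgeR called 0 of the 49 and 0% of all genes. At an unadjusted p under 0.05, 11 were higher and 0 lower, where 5.76% of all genes were higher and 6.38% lower. DESeq2 called 1, Ndufb5 (0.26, adjusted p = 0.0499), where it called 0.0431% of all genes higher. The number at an unadjusted p under 0.05 was 5 without KO-aKG-8 and 15 without KO-Veh-7, where 3.16% and 7.41% of all genes were higher. Without KO-Veh-9, 36 fold changes were positive, with a median of 0.07, and 9 were higher at that level, where 5.88% of all genes were. On the CPM values without TMM, 47 of 47 were positive, with a median of 0.27 beside 0.13 over all genes, so that the median relative to all genes was 0.14 there and 0.11 in the TMM-scaled fit. Ndufab1, the mitochondrial acyl carrier protein, had 191, 205 and 278 CPM in KO-aKG, against 133, 175 and 216 CPM in KO-Veh, and all 8 KO-aKG libraries lay above the KO-Veh median (0.30 ± 0.09, adjusted p = 0.22). Ndufaf6 had 0.09 ± 0.10 (adjusted p = 0.768) and Ndufc1 0.14 ± 0.07 (adjusted p = 0.435). This comparison shares the KO-Veh libraries with the first one, and the WT comparison shares WT-Veh with it, so the values are not independent of each other.

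Markers also moved with the KO treatment comparison. Oligodendrocyte markers were positive for 11 of 11 (median 0.84), of which edgeR called 0 and 9 were higher at an unadjusted p under 0.05, and their score ran from 7.38 to 9.08 in KO-aKG and from 6.44 to 8.21 in KO-Veh, with no marker at 0. Thalamus and brainstem markers were positive for 11 of 12 (median 1.15). The 7 complex I genes of mitochondrial DNA were all negative, with a median of -0.49, opposite in sign to the nuclear median of 0.10, and edgeR called 0 of 7, with 3 lower at an unadjusted p under 0.05. The mitochondrial share of counts was 23.8% to 32.4% in KO-aKG and 22.6% to 46.7% in KO-Veh. Without the mitochondrial rows in the library sizes the nuclear median was 0.11.

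Other genes of the pathway, taken from lists drawn up with earlier results of these data known, gave mixed counts. Among 13 further complex I assembly factors, Lyrm2, an assembly-linked LYR protein, rose in KO-Veh against WT-Veh (0.42 ± 0.12, adjusted p = 0.0442), and Aifm1, which is needed for complex I biogenesis, fell (-0.40 ± 0.11, adjusted p = 0.0234). Averaged over treatments 3 of the 13 rose, Lyrm2, Nubpl and Tmem126b, and Aifm1 fell. Tmem126b, a membrane-arm assembly factor, also rose in KO-aKG against WT-aKG (0.51 ± 0.12, adjusted p = 0.0227). Of 39 nuclear genes of complexes II to V, 0 rose and 1 fell with vehicle, Sdha of complex II (-0.29 ± 0.08, adjusted p = 0.0299), and 3 were higher and 3 lower at an unadjusted p under 0.05. Their median was 0.09, beside 0.17 for the Nduf genes. On average over treatments Sdhb rose (0.18 ± 0.05, adjusted p = 0.0109) and Sdha, Cycs and Cox8a fell.

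Regulators of mitochondrial biogenesis moved in both directions. Of 13, the nuclear coactivator Ppargc1a fell in KO-Veh against WT-Veh (-0.37 ± 0.09, adjusted p = 0.0191) and Tfb2m, a mitochondrial transcription factor, rose (0.33 ± 0.08, adjusted p = 0.0177). Averaged over treatments, Tfb2m and Tfam rose by 0.24 and 0.18, while Ppargc1a, Ppargc1b and Gabpb2 fell. The 7 mitochondrial complex I genes gave 0 calls in any comparison between groups.

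**Figure D4:**
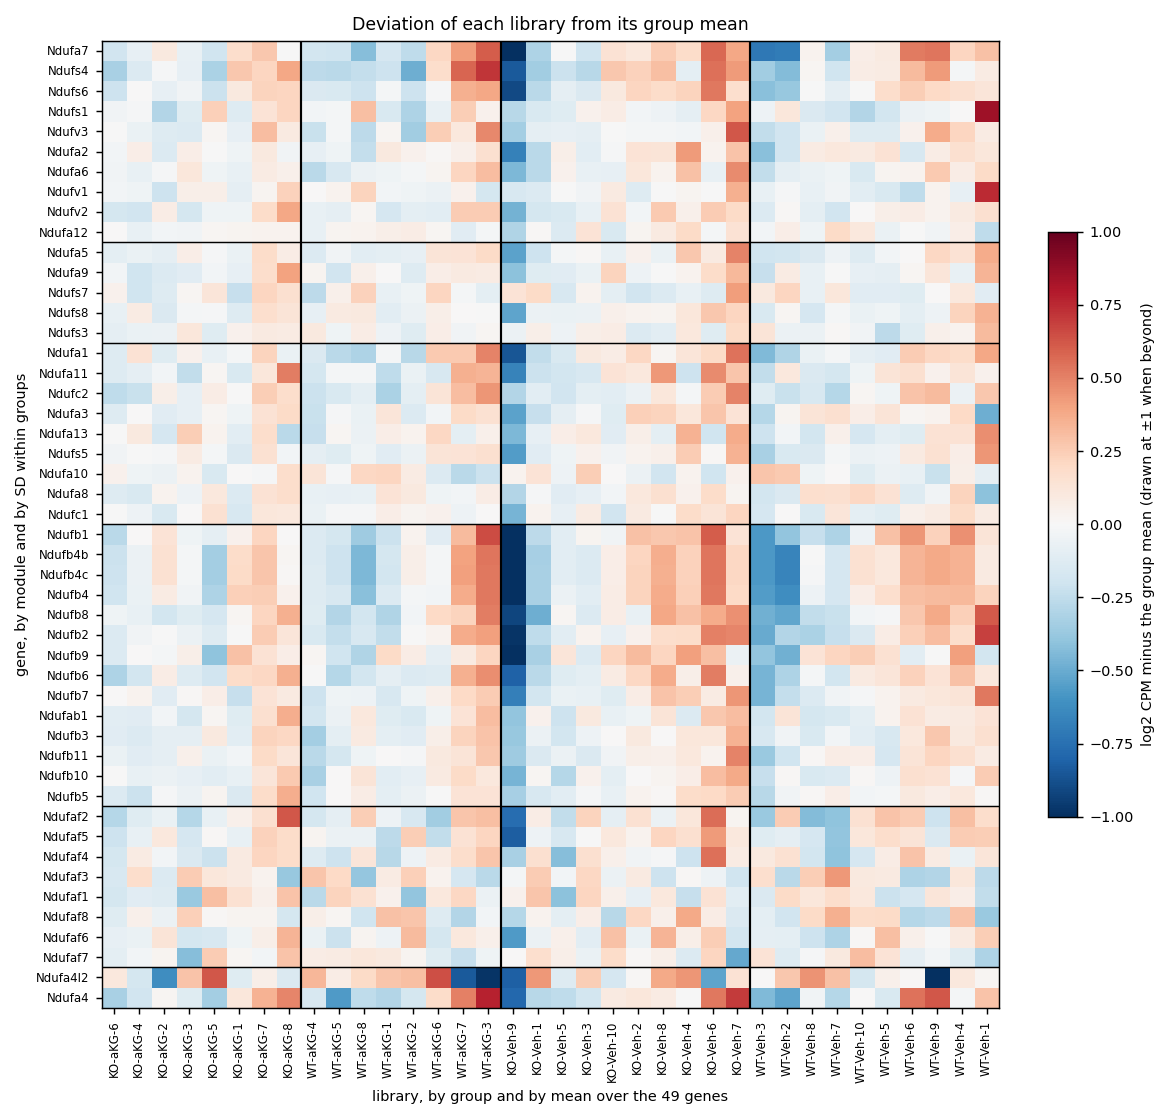
Deviation of each library's log2 CPM from its group mean for 48 Nduf genes, grouped by module (rows) and by group (columns), with libraries ordered within a group by their mean over all 49. KO-Veh-9 is low for nearly all genes, WT-Veh-1 is high for Ndufs1 and Ndufv1, and the rows of assembly factors follow the other rows less closely.

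Within groups, most Nduf genes varied together and little. The SD of log2 CPM within groups ran from 0.11 to 0.41, with a median of 0.21, against a median of 0.28 for 8625 genes of like level, and 14 of the 49 lay above that. Ndufa12 and Ndufs3 were the steadiest, with 0.11, which placed them at percentiles 0.278 and 0.475 of genes of like level. Both were among the 5 genes called with vehicle. Ndufa4l2 (0.41), Ndufa4 and Ndufa7 (both 0.39) varied most. The first principal component of the 36 within-group profiles held 61% of their variance, and its largest weights were those of Ndufa7 (0.28), Ndufa4 (0.27) and Ndufb1 (0.25). These genes rose and sank together from library to library: Ndufa7 correlated with Ndufs4 at r = 0.90 and with Ndufb8 at 0.89 (n = 36 libraries, which share tissue make-up and depth), whereas the steady pair Ndufa12 and Ndufs3 gave -0.04.

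By module, the median correlation between genes was 0.74 within the distal membrane arm, 0.47 within the N module, 0.45 within the Q module, 0.39 within the proximal arm and 0.10 among the assembly factors. Distal and N module genes correlated at a median of 0.67, and assembly factors and Q module genes at 0.01. Without Ndufb4b and Ndufb4c, an alternative chosen after seeing the data, the distal value was also 0.74. Ndufb4, Ndufb4b and Ndufb4c, whose rows correlated at 0.99, are near-identical sequences, and their values are uncertain for that reason. GENCODE M21 types Ndufb4c as a processed pseudogene, while RefSeq types it as protein-coding. These rows may share reads, yet each counts as a separate gene in the counts over all Nduf genes and over the distal arm. The values of Ndufs5, whose pseudogene row followed it at r = 0.99, are uncertain too, and less so those of Ndufab1 (r = 0.72). Over the 46 genes with an annotated transcript length, longer messages varied less (Spearman's rho of length and within-group SD -0.31, across genes, which are not independent replicates).

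The mean of the 49 genes, as log2 CPM, was 7.07, 7.14 and 7.34 (lowest, median, highest) in KO-aKG, 7.06, 7.11 and 7.37 in WT-aKG, 6.51, 7.08 and 7.28 in KO-Veh, and 6.67, 6.91 and 7.06 in WT-Veh. WT-Veh was the lowest group by its median, and KO-Veh-9 the lowest library. KO-Veh-9 was also the lowest of its group in the mean of complexes II to V, 7.97, and of the ribosomal protein genes, 7.90. In WT-Veh-1 the core subunits Ndufs1 and Ndufv1 reached 126 and 194 CPM, while it was the lowest of its group for others such as Ndufa12 (106 CPM) and Ndufa8 (158 CPM).

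**Figure D5:**
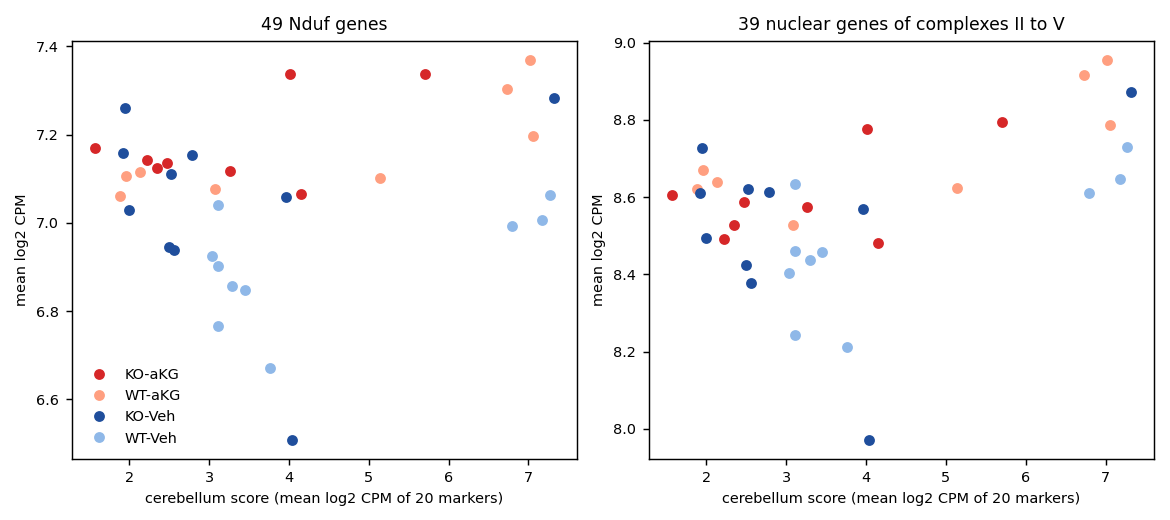
Mean log2 CPM of the 49 Nduf genes (left) and of 39 nuclear genes of complexes II to V (right) against the cerebellum score of each of the 36 libraries, coloured by group. The 9 libraries high in the score lie between 5.14 and 7.32 and the other 27 at or below 4.16, with KO-Veh-9 the lowest point in both panels.

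Region make-up tracked some of this spread. In a fit of the 4 groups plus the cerebellum score, 20 of the 49 rose with the score and 3 fell, where 29% of all genes rose and 28.4% fell. The steepest rises per log2 unit of score were those of Ndufa4 (0.14 ± 0.03), Ndufs4 (0.10 ± 0.03) and Ndufb8 (0.10 ± 0.03), and the 3 that fell were all assembly factors: Ndufaf8 (-0.08 ± 0.02), Ndufaf3 (-0.07 ± 0.02) and Ndufaf7 (-0.05 ± 0.02). These slopes rest on the 9 libraries high in the score. Without them 0 of the 49 were called, where 0.611% of all genes rose and 0.0968% fell, and 17 of the 23 called slopes changed sign. Of the genes called in KO with vehicle, Ndufa9 passed the slope test (0.05 ± 0.02, adjusted p = 0.0071). Ndufa12 (-0.01), Ndufaf6 (0.00), Ndufc1 (0.01) and Ndufs3 (0.03) did not. The score covers cerebellum markers only, and the part of region make-up in these calls was not tested with these slopes. All 7 complex I genes of mitochondrial DNA fell with the score, with a median slope of -0.20.

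The 49 genes lie on 18 chromosomes, and 2, Ndufb7 and Ndufa13, share chromosome 8 with Gpt2, at 1.92 and 15.6 Mb. Ndufa13 had a log2 fold change of 0.27 ± 0.09 in KO-Veh against WT-Veh (adjusted p = 0.0859) and of 0.05 ± 0.10 in KO-aKG against WT-aKG (adjusted p = 0.857). Neither neighbour passed edgeR's test on all libraries, but with vehicle Ndufa13 was called higher without KO-Veh-9 (0.32, adjusted p = 0.0291), without WT-Veh-1 (0.34, adjusted p = 0.0241), with 4 region and cell scores as covariates (0.32, adjusted p = 0.0233) and in DESeq2 (0.27, adjusted p = 0.0476). Ndufa13 was not called without the low-count filter, with only the compared groups, with a replicate block or in limma on the CPM table. The genes called with vehicle in the main fit lie on chromosomes 2, 3, 4, 6 and 10.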

How the data were processed

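Polyadenylated RNA of 36 brain pieces was captured with oligo-dT primers carrying a sample barcode and a molecular identifier and fragmented by tagmentation, per the labels' protocols. The authors deposited estimated counts per gene, written as whole numbers and not normalised, and a CPM table of 21637 genes. Multiplied by 1 constant per library, 85.6% to 88.7% of the CPM values became whole within 0.02. The submitters' processing notes name HISAT2 2.2.1, featureCounts 2.0.6, Trim Galore 0.6.10 and SAMtools 1.6, with FastQC 0.12.1, deepTools and both mm39 and mm10. The sources used here give neither their roles nor strand use nor any collapsing of molecular identifiers.

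The main test was edgeR 4.0.16 under R 4.3.3 (filterByExpr, 16255 genes; TMM; 1 robust quasi-likelihood fit of all 36 libraries in 4 groups, no covariates), with 6 contrasts, and a fit adding the cerebellum score. A gene was called at an adjusted p under 0.05 (Benjamini-Hochberg, across the 16255 genes). Standard errors come from that fit, CPM values are TMM-scaled, and log2 CPM has a prior count of 2. The fit was tested on simulated counts, drawn gene by gene without region differences between libraries. Their known changes were larger than those of the Nduf genes called in the main fit, so the simulation says little about these calls. Alternatives were DESeq2 1.42.0, limma 3.58.1 on log2(CPM + 1) and log2(CPM + 0.5), other size factors, no low-count filter, only the compared groups, no mitochondrial rows, 4 marker scores as covariates, no libraries high in cerebellum markers (score over 1 log2 unit above the mean), a replicate block, and each library left out.

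Modules, other lists, tests and members were chosen with earlier results of these data known. Full values are given for Nduf genes called in any contrast, 6 core catalytic subunits, and the largest and smallest fold change of each module with vehicle. Other named Nduf genes were chosen after their values were seen. The values of 1 Nduf gene are not reported here; it stays in the fits and in counts over the 49. Promoters are RefSeq's (GRCm38.p6), and overlaps come from GENCODE M21. Among 146 within-group pairs of libraries, 0 were identical.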

Additional observations from a re-analysis of the deposited data

Results flagged for a closer look

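Single libraries stood apart from the others of their group for 6 of the 21 Nduf genes given in full, by the gap to the nearest library relative to the group's range. Chance flags about 1 in 20 groups, and 84 groups were checked, of which 7 were flagged. WT-Veh-1 was the highest WT-Veh library by such a gap for 3 genes, with 194 CPM of Ndufv1 (next 119), 126 CPM of Ndufs1 (next 75.5) and 250 CPM of Ndufb7 (next 190). KO-Veh-7 was the highest KO-Veh library for Ndufv1 with 124 CPM (next 103). KO-Veh-7 and WT-Veh-1 had the highest cerebellum scores of their groups, 7.32 and 7.27, and the part of the region in these gaps was not tested. Ndufs8 was lowest in KO-Veh-9 with 86.8 CPM (next 119), Ndufb5 was lowest in WT-Veh-3 with 155 CPM (next 184), and Ndufaf4 was highest in KO-Veh-6 with 35.2 CPM (next 27).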

How the results depend on the processing

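Of the 49 Nduf genes, 5 were called in KO-Veh against WT-Veh. That count was 1 without the low-count filter, 1 with only the 2 groups compared, 1 in limma on the CPM table at either pseudocount, 10 in DESeq2 (9 higher, 1 lower) and 15 with 4 region and cell scores as covariates, and it ran from 2 to 13 with single libraries left out. In KO-aKG against WT-aKG it was 0, and 1 in DESeq2 and with the covariates. In WT-aKG against WT-Veh it was 0, and 7 in DESeq2. In KO-aKG against KO-Veh it was 0, and 1 in DESeq2. For these 3 and the interaction it stayed at 0 with each library left out. Averaged over treatments it was 11, and 3 without the filter, 17 with the covariates and 9 to 13 with single libraries left out. The cause of these differences was not tested. The share of all genes called changed with the setting too. With vehicle, 2.6% of all genes rose in the main fit, 3.49% in DESeq2 and 4.82% with the covariates. Counts given here without such a share do not set Nduf genes apart from all genes. Slopes on the cerebellum score gave 23 calls, and 0 without the libraries high in that score, where Ndufa4 (-0.09), Ndufs4 (-0.07), Ndufb8 (-0.08), Ndufa7 (-0.18) and Ndufaf7 (0.03) changed sign. Whether replicate numbers pair the libraries was not settled. Of 50 same-numbered pairs, 26 deviated together with r above 0.1 (median 0.107, range -0.652 to 0.805). Of 36 libraries, 8 correlated best with their own number, and no count for unpaired numbers was made beside it. With a replicate block 3 genes were called in KO-Veh against WT-Veh and 10 on average over treatments. Depth limits Ndufa4l2 most, the gene with the fewest counts.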
